A study of Mus musculus with 24 samples.

Results

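The erythroid miRNAs miR-451, miR-144 and miR-486, named for their abundance in red blood cells, were followed in the whole lung of C57BL/6 mice after birth. They were taken by their exact array names, mmu-miR-451, mmu-miR-144 and mmu-miR-486, and are 3 of 650 names on the array and of 322 miRNAs that entered the tests. Each of the 3 was detected on all 24 arrays, so none was lost to the filter on dim miRNAs. The array held no other name for a mature strand of these 3 hairpins. Total RNA was hybridised to 1-colour Agilent miRNA arrays, 1 array per biological replicate, at day 1, day 4, day 7 and day 14 (n = 5 each) and at 6 weeks, written here as day 42 (n = 4). Although the title of the study names fetal lungs, the sample labels all give ages after birth, which were used. All groups share the C57BL/6 strain, and no transgene, deletion or treatment is given. The miRNAs miR-126-3p of endothelium, miR-200c of epithelium and miR-143 of smooth muscle were detected on 24 of 24 arrays.

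Red blood cell precursors make miR-144 and miR-451 from a single primary transcript, which the erythroid factor GATA1 switches on. From there the partners are processed differently: miR-144 is cut by Dicer like most miRNAs, whereas the short hairpin of miR-451 is sliced by Argonaute 2 itself, and miR-451 persists in mature red cells. The third member, miR-486, comes from within the ankyrin gene Ank1 and is abundant in both red cells and muscle. A perfusion of the lungs before extraction is not given in the sources used here. In RNA from a whole lung, fewer red cells and less RNA per red cell cannot be told apart.

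The mature sequences of the cluster partners are shown because their levels parted from array to array although they lie on a single transcript. They come from RefSeq (GRCm38.p6), written 5′ to 3′, and the capitals mark the seed, bases 2 to 8.
miR-451: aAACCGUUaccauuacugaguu
miR-144: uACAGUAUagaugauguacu
The seeds differ, and no other mature mouse miRNA in the RefSeq table had either seed. Of its 22 bases miR-451 has 8 G or C, and miR-144 has 6 of 20. Both hairpins lie on the plus strand of chromosome 11, Mir144 at chr11:78073005-78073070 and Mir451a at chr11:78073170-78073241, with 99 bases between them. In the hairpins the capitals mark the mature strand, which sits in the 3′ arm of Mir144 but runs into the loop of the shorter stem of Mir451a.
Mir144: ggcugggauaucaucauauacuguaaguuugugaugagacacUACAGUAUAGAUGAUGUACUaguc
Mir451a: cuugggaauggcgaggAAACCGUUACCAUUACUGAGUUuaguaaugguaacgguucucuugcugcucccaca
No sequence is shown for miR-486.

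Levels are given as log2 scaled intensity: the summed signal of a miRNA's probes on an array, divided by the brightness of that array and multiplied by a common factor. Brightness is the unscaled 75th percentile over the 228 miRNAs that every array detected. It ran from 923 to 4954 intensity units, and the 5 dimmest arrays were day 1 replicates 1, 4 and 5 and day 4 replicates 1 and 3. An array detected between 266 and 348 miRNAs. The share of calls that were rises depended on the scaling. For day 14 minus day 1 it was 39.3%, against 56.4% to 85.5% under 5 other scalings or background corrections. For day 14 minus day 7 it was 23.8% against 43.6% to 66.7%, for day 42 minus day 7 29.6% against 35.2% to 61.1%, and for day 42 minus day 1 30.7% against 15.4% to 71.4%. In the same order the median difference of all 322 miRNAs was -0.17 (-0.58 to 0.89 under those 5), -0.05 (0.085 to 0.32), -0.29 (-0.28 to 0.35) and -0.35 (-1.17 to 0.64). Since probes differ in brightness, levels of different miRNAs were not ranked against each other, and differences between members are read only as they change from array to array.

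Over the 5 ages, miR-486 and miR-451 each moved by about a doubling or less, and miR-144 moved most but with the widest spread. By limma over all 5 ages (Benjamini-Hochberg over 322 miRNAs), miR-486 was called (range of age means 0.98, adjusted p = 0.0121) and miR-451 was called (0.80, adjusted p = 0.0487), whereas miR-144 was not (1.97, adjusted p = 0.264). In that test 65.5% of all miRNAs were called, so that 2 of 3 members is near the background. The call for miR-451 held without 7 single arrays, namely day 1 replicates 2 and 3, day 4 replicates 1 and 4, day 14 replicate 5 and day 42 replicates 1 and 4, and was lost without any of the other 17 (adjusted p from 0.0114 to 0.124 over the 24). It was also lost in 10 of 12 other alternatives (adjusted p from 0.000166 to 0.475), slide (0.0571) or replicate number (0.0595) as a block among them, and that of miR-486 was lost in 1 of 12, normexp (adjusted p = 0.0862; range from 5.02e-05).

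**Figure D1:**
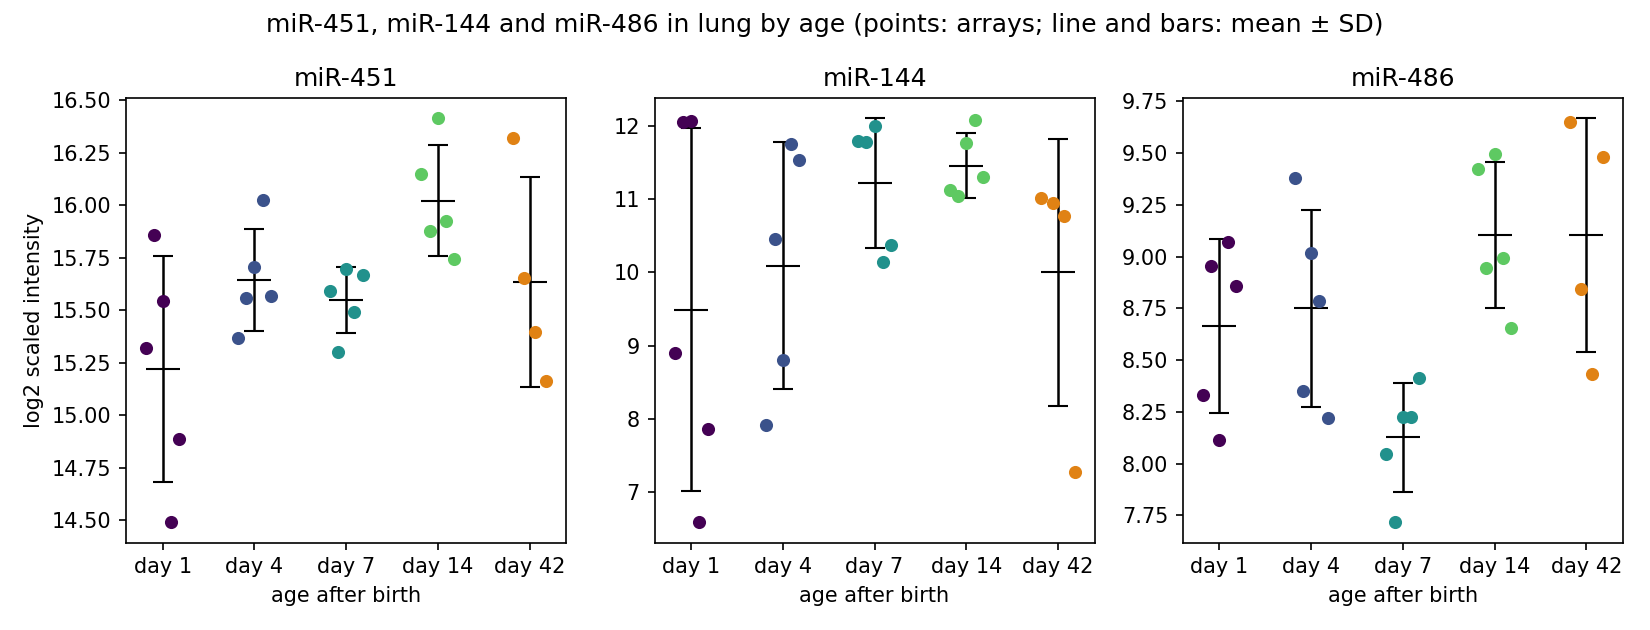
Log2 scaled intensity of miR-451, miR-144 and miR-486 (vertical axes, a separate scale for each) by age after birth; points are arrays, and the black lines and bars are the mean ± SD of an age. The miR-144 panel spans 6.59 to 12.08, day 1 having both the lowest level and 2 of the 3 highest, while miR-486 has its lowest mean, 8.13, at day 7.

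The cluster member miR-451 had its highest mean at day 14 and its lowest at day 1, an order that turned at both ends with quantile normalization (day 14 minus day 7 -0.050, day 42 minus day 1 -0.12) and at its lower end without the 5 dimmest arrays (day 7 minus day 1 -0.15). Its day 1 levels were 15.32, 15.86, 15.54, 14.49 and 14.89 in replicates 1 to 5 (mean 15.22 ± 0.54, SD, n = 5), and its day 14 levels were 16.15, 15.88, 16.41, 15.93 and 15.74 (mean 16.02 ± 0.26, SD, n = 5). The ages overlap only in that day 1 replicate 2 lies above day 14 replicate 5, and the low end of day 1 is held by replicates 4 and 5, which are also the 2 dimmest arrays of the series.

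From day 1 to day 14 miR-451 rose by 0.80 ± 0.23 (SE) on the log2 scale, or 1.74-fold (limma, adjusted p = 0.0049). In that comparison 53.7% of all miRNAs were called and 21.1% were called higher. The difference was 1.13, 0.020 and 0.86 within slides 1, 2 and 3, slide 2 holding a single array of each age. With brightness in the model it was 0.26 (adjusted p = 0.41), and it was 0.32 (adjusted p = 0.329) without the 5 dimmest arrays; over the alternatives other than leaving out single arrays the adjusted p ran from 6.03e-05 to 0.41.

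At day 4 the miR-451 levels were 15.37, 15.56, 15.71, 16.02 and 15.57 (mean 15.64 ± 0.24, SD, n = 5), and at day 7 they were 15.59, 15.30, 15.69, 15.49 and 15.67 (mean 15.55 ± 0.16, SD, n = 5). These ages overlap in part: day 4 levels of 15.71 and 16.02 lie above every day 7 array, and the day 7 level of 15.30 lies below every day 4 array. Of the series, day 7 has the narrowest spread. Between day 7 and day 14 the arrays did not overlap, in either direction, for 37% of all miRNAs. For miR-451 every day 7 array lay below every day 14 array, yet the difference of 0.47 was not called (limma, adjusted p = 0.124). At day 42 the levels were 16.32, 15.65, 15.39 and 15.16 (mean 15.63 ± 0.50, SD, n = 4), replicate 1 standing as high as the top of day 14 and replicate 4 in the range of day 1. The interval of day 42 minus day 1 ran from -0.084 to 0.91 (95%) on the log2 scale, which holds both no difference and a rise of nearly a doubling. In the order of age means, day 1, day 7, day 42, day 4 and day 14, no neighbours differed by a called amount.

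The cluster partner miR-144 varied widely within day 1, day 4 and day 42, with less spread at day 7 and day 14. At day 1 its levels were 8.90, 12.05, 12.06, 6.59 and 7.86 in replicates 1 to 5 (mean 9.49 ± 2.48, SD, n = 5), a range of 44.5-fold, where miR-451 on the same 5 arrays spanned 2.58-fold. The day 1 arrays fall apart into replicates 2 and 3, with levels above 12, and replicates 1, 4 and 5, all below 9. At day 4 the levels were 7.91, 10.45, 8.80, 11.75 and 11.53 (mean 10.09 ± 1.69, SD, n = 5), with replicates 1 and 3 low.

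The spread of miR-144 was narrower at day 7 and day 14. At day 7 its levels were 11.79, 11.78, 12.00, 10.14 and 10.37 (mean 11.22 ± 0.88, SD, n = 5), and at day 14 they were 11.12, 11.04, 11.76, 12.08 and 11.30 (mean 11.46 ± 0.45, SD, n = 5). All 5 day 14 arrays lie within the range of day 7 or just above it. At day 42 the levels were 11.01, 10.94, 10.77 and 7.27 (mean 9.999 ± 1.82, SD, n = 4), 3 arrays close together and replicate 4 far below them. In the order of age means, day 1, day 42, day 4, day 7 and day 14, no neighbours differed by a called amount.

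None of the 10 comparisons between 2 ages called miR-144 in the fit without brightness, though from 0.311% (day 7 minus day 4) to 61.8% (day 42 minus day 1) of all miRNAs were called in them, with 1.55% in day 4 minus day 1, 39.4% in day 14 minus day 4 and 59.6% in day 42 minus day 4. The largest difference, day 14 minus day 1, was 1.97 ± 0.95 (SE) on the log2 scale (limma, adjusted p = 0.0843), with an interval from -0.0050 to 3.94 (95%). It was called with no scaling (3.06, adjusted p = 0.025), with a percentile taken over every name (2.35, adjusted p = 0.0381) and without day 1 replicate 2 (2.60, adjusted p = 0.0223) or replicate 3 (2.61, adjusted p = 0.0217), and it was -1.40 with brightness in the model and -0.60 without the 5 dimmest arrays. Between day 14 and day 42 the arrays did not overlap, in either direction, for 29.8% of all miRNAs, and 32.6% were called. For miR-144 every day 42 array lay below every day 14 array, and the difference of -1.46 was not called (limma, adjusted p = 0.32). Brightness was also put in the model, as a single straight line over all arrays. With it miR-144 was called lower at day 42 than at day 1 (-2.60, adjusted p = 0.00168), day 4 (-2.07, adjusted p = 0.00377) and day 7 (-2.10, adjusted p = 0.00166). Day 42 minus day 1 was -2.06 (adjusted p = 0.0365) without the 5 dimmest arrays and -1.15 (adjusted p = 0.0588) on the 18 arrays of at least 1800 units, and over the alternatives other than leaving out single arrays its adjusted p ran from 0.00168 to 0.991.

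The Ank1-hosted miR-486 had a different course, with its lowest levels at day 7 and higher levels at day 14 and day 42. Its day 7 levels were 8.05, 7.72, 8.23, 8.23 and 8.41 (mean 8.13 ± 0.26, SD, n = 5). Its day 14 levels were 9.42, 8.95, 9.50, 9.00 and 8.65 (mean 9.10 ± 0.35, SD, n = 5), and its day 42 levels were 9.65, 8.84, 8.43 and 9.48 (mean 9.10 ± 0.57, SD, n = 4). Every day 7 array lay below every day 14 array and below every day 42 array, although day 42 replicate 3 stood only just above day 7 replicate 5. Of all miRNAs, 37% had no overlap, in either direction, between day 7 and day 14, and 51.9% had none between day 7 and day 42.

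From day 7 to day 14 miR-486 rose by 0.98 ± 0.26 (SE) on the log2 scale, or 1.97-fold (limma, adjusted p = 0.00452), a comparison in which 31.4% of all miRNAs were called and 7.45% were called higher. The rise was 1.07, 0.88 and 0.85 within slides 1, 2 and 3. It was 0.85 (adjusted p = 0.117) with normexp background correction, the alternative of 12 that ended the call (adjusted p from 0.000352 to 0.117), and it was called without each single array in turn. Day 42 lay above day 7 by 0.98 ± 0.27 (SE; adjusted p = 0.00389, limma), where 57.8% of all miRNAs were called and 17.1% were called higher; with normexp this difference was 0.70 (adjusted p = 0.109).

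Before day 7 the levels of miR-486 were spread more widely. At day 1 they were 8.33, 8.95, 8.11, 9.07 and 8.86 (mean 8.67 ± 0.42, SD, n = 5), and at day 4 they were 9.38, 8.35, 9.02, 8.78 and 8.22 (mean 8.75 ± 0.48, SD, n = 5). Both ages overlap day 7, and neither day 7 minus day 4 (-0.62, adjusted p = 0.682, limma) nor day 7 minus day 1 (-0.54, adjusted p = 0.136, limma) was called; with no scaling the latter was 0.18. Of all miRNAs 0.311% were called between day 4 and day 7, and 15.8% between day 1 and day 7. In the order of age means, day 7, day 1, day 4, day 14 and day 42, no neighbours differed by a called amount.

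The arrays were then compared by their brightness, since the spread of miR-144 within an age followed it closely. In the order of brightness, the day 1 arrays had miR-144 levels of 6.59, 7.86, 8.90, 12.05 and 12.06, at 923, 1099, 1571, 1917 and 2183 units. The day 4 arrays in that order had 7.91, 8.80, 10.45, 11.53 and 11.75, at 1190, 1551, 2170, 2330 and 2546 units. At both ages a brighter array had the higher level without exception, and the largest step at day 1 lay between 1571 and 1917 units.

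At the later ages most arrays were brighter and the order was looser. The day 7 arrays had miR-144 levels of 10.14, 10.37, 11.78, 12.00 and 11.79, at 2171, 2176, 2406, 2643 and 2696 units. At day 14 the order was 11.04, 11.30, 11.12, 12.08 and 11.76, at 2302, 2598, 2713, 3628 and 4954 units. At day 42 the low array, replicate 4, had 1727 units, while the other three lay between 2662 and 4151 units.

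**Figure D2:**
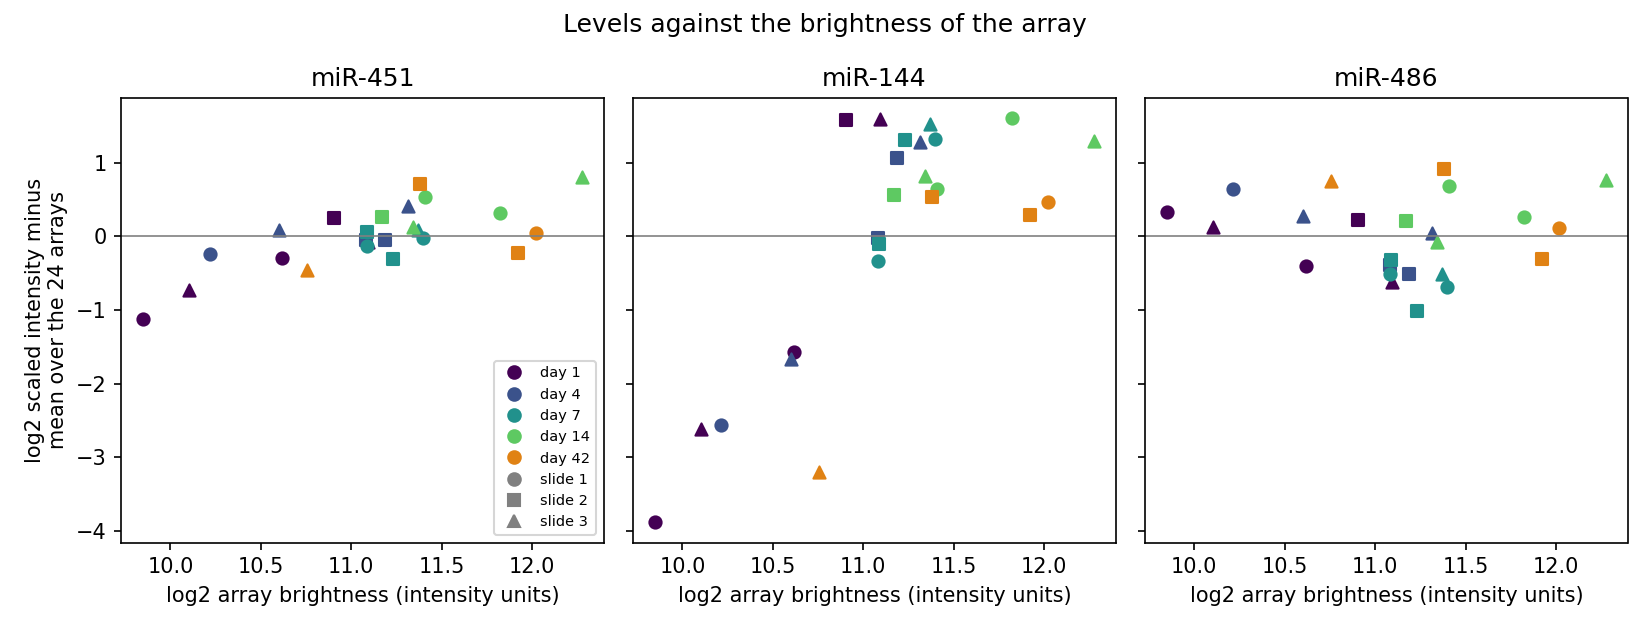
Log2 scaled intensity of each member minus its mean over the 24 arrays (vertical axis) against the log2 brightness of the array in intensity units (horizontal axis); points are arrays, colours are ages and shapes are slides. The 6 arrays under 1800 units hold the 6 lowest miR-144 levels, while the other 18 spread between 10.14 and 12.08 at all 5 ages.

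The slope on brightness within ages was fitted by limma for all 322 miRNAs. For miR-144 it was 3.09 ± 0.40 (SE) in log2 scaled intensity per doubling of brightness (adjusted p = 1.67e-06), the highest of the 322. Without scaling this was 4.09, so that the raw signal of miR-144 rose 17.1-fold where the array's own 75th percentile rose by a doubling. For miR-451 the slope was 0.49 ± 0.15 (SE; adjusted p = 0.00532), rank 59 from the top.

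For miR-486 the slope was -0.46 ± 0.18 (SE; adjusted p = 0.0303). It was 0.54 with no scaling, where a miRNA that only follows brightness already has a positive slope. A slope was called for 66.8% of all miRNAs, 23% above 0 and 43.8% below, with a median of -0.18 over the 322. The 25 miRNAs within 0.5 of the mean log2 level of miR-144 had a median slope of 0.0050 and a highest of 1.75. The slope of miR-144 ranked highest of all tested miRNAs in 31 of 33 alternatives, the deposited table (rank 2) and a lower floor for dim signals (rank 3) being the exceptions.

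The 6 arrays under 1800 units carried much of these slopes. On the other 18 arrays the slope of miR-144 was 1.04 (adjusted p = 0.152), that of miR-451 was 0.082 (adjusted p = 0.84) and that of miR-486 was -0.085 (adjusted p = 0.881, limma). Without the 5 dimmest arrays, which leaves day 42 replicate 4 in, they were 2.05 (adjusted p = 0.00345), 0.30 (adjusted p = 0.239) and -0.25 (adjusted p = 0.473). Over the alternatives other than leaving out single arrays, the adjusted p ran from 5.22e-09 to 0.152 for miR-144, from 5.22e-09 to 0.84 for miR-451 and from 0.00946 to 0.881 for miR-486. The lowest of each came with no scaling, where a miRNA that only follows brightness already has a positive slope. Among the rest the lowest was 9.25e-07 for miR-144, 4.27e-05 for miR-451 and 0.0095 for miR-486.

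**Figure D3:**
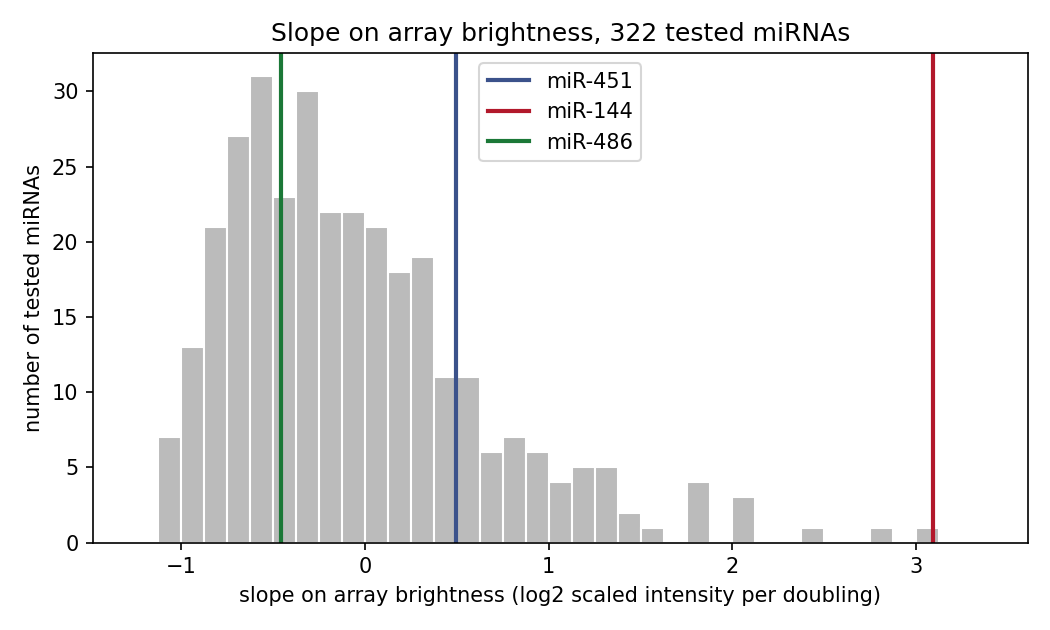
Number of miRNAs (vertical axis) by their slope on array brightness in log2 scaled intensity per doubling (horizontal axis), for the 322 tested miRNAs, adjusted for age; vertical lines mark the 3 members. The line of miR-144 stands at 3.09, at the far right of the bars, against 0.49 for miR-451 and -0.46 for miR-486.

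The partners of the cluster thus parted with brightness. The log2 difference miR-451 minus miR-144, which no scaling factor enters, fell by 2.60 per doubling of brightness within ages, or 6.05-fold. Over the 24 deviations from the age means its Pearson's r with log2 brightness was -0.845 (permutation test within ages, two-sided p = 3e-05, adjusted p = 4.5e-05 over 3 pairs of members) and Spearman's rho was -0.839 (p = 5e-05, adjusted p = 7.5e-05). Without the 2 arrays farthest from the median brightness, day 42 replicate 4 and day 4 replicate 1 in these deviations, r was -0.770. Within slides 1, 2 and 3, of 8 arrays each, r was -0.943, -0.800 and -0.827. 
The arrays fell into 2 sets. Before the age means are taken out, the difference was 6.42 to 7.90 on the 6 arrays under 1800 units, 3 of day 1, 2 of day 4 and 1 of day 42, and 3.48 to 5.35 on the other 18, with no array between. On the 18, r of the deviations from age means was -0.456 (permutation, adjusted p = 0.0477), and without that adjustment r was 0.053. Over the 6, with no adjustment for age, r was -0.336 and rho -0.371 (exact permutation test of r, two-sided p = 0.469).

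The other pairs parted as well, each in the direction of its slopes. For miR-486 minus miR-144, r was -0.860 (permutation, adjusted p = 4.5e-05, rho -0.852), -0.786 without the 2 farthest arrays and -0.977, -0.824 and -0.827 within slides, and the difference fell by 3.55 per doubling. For miR-451 minus miR-486, r was 0.830 (permutation, adjusted p = 6e-05, rho 0.752), 0.736 without the 2 farthest and 0.920, 0.854 and 0.802 within slides. On the 18 brighter arrays the former was -0.449 (adjusted p = 0.0477) and the latter 0.303 (adjusted p = 0.214).

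In tests without brightness, the difference between the partners did not change with age beyond the spread of its arrays. Its age means were 5.73, 5.55, 4.33, 4.57 and 5.63 from day 1 to day 42 (permutation test of F over 5 ages, p = 0.381). Day 42 and day 1 differed by -0.094 (exact permutation test, two-sided p = 0.921). Mean brightness was 1539 units at day 1 and 3104 at day 42, so these tests hold age and brightness together. With brightness in the model, day 42 minus day 1 was -2.60 for miR-144 (limma, adjusted p = 0.00168) and -0.084 for miR-451 (adjusted p = 0.782). That model holds a single slope on brightness for all arrays. On the 18 arrays of at least 1800 units the slope of miR-144 was 1.04. The difference between the partners was not tested with brightness in the model. On the 13 arrays between 2100 and 2800 units it was 3.48 on the day 1 array, 4.03 to 5.11 on 3 day 4 arrays, 3.52 to 5.35 on 5 day 7 arrays, 4.45 to 5.03 on 3 day 14 arrays and 5.31 on the day 42 array. This range was chosen after the values were seen, and with 1 array at either end it carries no test.

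**Figure D4:**
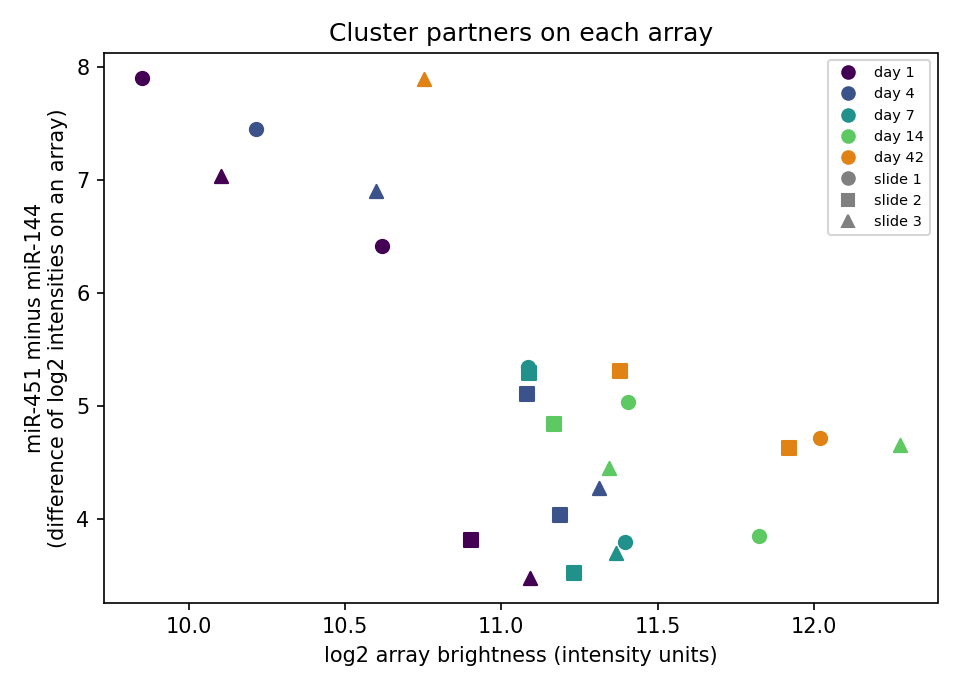
Difference of the log2 intensities of miR-451 and miR-144 on each array (vertical axis) against the log2 brightness of the array in intensity units (horizontal axis); colours are ages and shapes are slides. The 6 arrays under 1800 units lie at 6.42 to 7.90 and the other 18 at 3.48 to 5.35, and the age means are lowest at day 7 and day 14, with 4.33 and 4.57.

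The partners still varied together. Over the 24 deviations from age means miR-451 and miR-144 had r = 0.710 (permutation, adjusted p = 0.0165 over 3 pairs, rho 0.603, adjusted p = 0.0319), 0.532 without the 2 farthest arrays, and 0.782, 0.492 and 0.822 within slides. With brightness taken out of both, r was 0.457, against 0.632 for miR-451 with miR-486 and -0.135 for miR-486 with miR-144. With brightness left in, miR-451 and miR-486 had r = 0.134 (permutation, adjusted p = 0.611, rho 0.146). Within slides it was -0.586, 0.878 and -0.124, so that no common direction held across slides. For miR-486 and miR-144, again with brightness left in, r was -0.484 (permutation, adjusted p = 0.0745, rho -0.446), with -0.761, 0.050 and -0.620 within slides.

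Probe noise was small beside these ranges. Each member was read by 2 probes of 10 spots, and the log2 difference between the 2 probes of miR-144 had an SD of 0.067 over the 24 arrays, against 0.069 for miR-451 and 0.049 for miR-486. The single probes of miR-144 spanned 7.75 and 7.47 on the log2 scale before scaling. On the dimmest array, day 1 replicate 4, 4 of 8 used spots of one miR-144 probe and 9 of 9 of the other were well above background, at mean intensities of 16.8 and 22.7, so that its level there rested on signals close to background.

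Other miRNAs tracked each member over the 24 arrays, described here by the Pearson correlation of log2 levels, which shares the arrays and their scaling. Those most like miR-144 were miR-32 (r = 0.983), miR-141 (0.956) and miR-362-3p (0.949), whereas 32 miRNAs were more like miR-144 than its partner miR-451 was (0.709). The closest to miR-451 were miR-140 (0.841), miR-467e (0.831) and miR-15a (0.770), and to miR-486 miR-140* (0.833), miR-125b-5p (0.811) and miR-365 (0.747). After miR-144, the steepest slopes on brightness were those of miR-32 (2.80) and the muscle miRNA miR-1 (2.42), and the lowest were those of miR-214 (-1.11), miR-690 (-1.08) and miR-139-3p (-1.08). The slope of miR-139-3p had an SE of 0.52 and was not called (limma, adjusted p = 0.0756).

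Sequences at the 2 ends of the slopes, without that of miR-1, are shown for comparison with miR-144, again from RefSeq with the seed in capitals.
miR-32: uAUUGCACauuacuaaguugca
miR-214: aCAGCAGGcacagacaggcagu
miR-690: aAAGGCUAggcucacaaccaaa
miR-139-3p: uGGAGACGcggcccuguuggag
Of 22 bases each, miR-32 has 7 G or C, miR-690 has 10, miR-214 has 13 and miR-139-3p has 15. The seed of miR-32 is shared with miR-25 and miR-92a, whose slopes were -0.39 and -0.84, against 2.80 for miR-32. Base composition was not compared over all tested miRNAs, since 62 of 322 names (19.3%) matched the RefSeq table.

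Other miRNAs of red cells moved with age about as all tested miRNAs did. The list held 16 miRNAs that are abundant in erythroid cells, 15 of them tested. From day 1 to day 42, 1 rose, 7 fell and the other 7 were not called (median -0.32), beside 18.9% higher and 42.9% lower and a median of -0.35 over all tested miRNAs. The growth-linked miR-17 (-1.25), miR-20a (-0.88) and miR-92a (-0.78) fell, as did miR-182 (-0.76), and miR-185 rose by 0.53. The mean of the 15 ran from 10.22 to 10.61 on the day 1 arrays and from 9.94 to 10.28 on the day 42 arrays. Many of these 15 are made in dividing cells of most tissues, so the list is not particular to blood.

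From the miRNAs that erythroid precursors switch off as they mature, 4 of 5 were higher at day 42 than at day 1 (median 0.64). They were miR-155 (1.80), which is also high in activated leukocytes, miR-222 (0.99), which restrains Kit, miR-24 (0.64) and miR-223 (0.43). Beside them, 4 of 5 leukocyte miRNAs rose (median 1.60; 18.9% of all miRNAs were called higher), among them miR-142-5p (2.35), miR-142-3p (1.87) and the lymphocyte miRNA miR-150 (1.60), with miR-223 held by both lists. The fifth, miR-342-3p, was at -0.54 and was not called (adjusted p = 0.0869, limma). The mean of the leukocyte list ran from 9.43 to 10.22 on the day 1 arrays and from 10.82 to 11.21 on the day 42 arrays. The part of leukocytes in the levels of the members was not tested.

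Striated muscle also makes miR-486, and of its 4 tested miRNAs 1 was called between day 1 and day 42, miR-208b (-2.25), where 61.8% of all miRNAs were called. It was not detected on day 1 replicates 4 and 5 or day 42 replicates 1 and 4, so the size of that difference rests partly on signals not above background. The mean of the 4 was 12.6 on day 1 replicate 2 and 6.01 to 8.56 on the other day 1 arrays. On that array miR-486 stood at 8.95, within the 8.11 to 9.07 of its age. The muscle list averaged 7.99 ± 0.70 at day 7 (SD over 5 arrays), with 8.58 ± 0.71 at day 14 and 8.05 ± 0.66 at day 42, beside the rise of miR-486 over those ages. Their part in the level of miR-486 was not tested, and miR-206 and miR-208a were too dim to test.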

How the data were processed

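The deposited array files hold intensity values per spot, background-subtracted per the file headers by Agilent Feature Extraction 10.7.1.1. The series table holds log2 values that the authors deposited for 672 names, with a median of 2.41 in every column. How they made it is not given in the sources used here, and it served as an alternative. Per the labels, 100 ng of total RNA was labelled with Cy3.

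Outlier spots were left out, spots of a probe averaged and probes of a miRNA summed. Sums were divided by the array's brightness (75th percentile over 228 miRNAs), raised to a floor of 7.24 and put on the log2 scale. miRNAs detected on all arrays of at least 1 age were tested (322). limma 3.58.1 (R 4.3.3) fitted the 5 ages together, with a threshold of 0.05 after Benjamini-Hochberg adjustment. Tests of correlations, between members or of their differences with brightness, permuted arrays within ages (100000 draws). The F-test of the partners' difference over the 5 ages permuted arrays across ages (100000 draws). Its test of day 42 against day 1 was an exact permutation between those ages. The limma comparisons and the fit of the slopes were tested on simulated data. Each slide of 8 arrays held all 5 ages. The replicate numbers did not pair samples. The number of arrays limits the precision, and where separate animals are not named by a label, p-values measure the spread between these arrays. The members and lists were chosen with earlier results of these data known. Named beside the members were the listed miRNAs called between day 1 and day 42 (at most 4 a list), the 3 most like each member and the 3 highest and lowest slopes. Alternatives were quantile normalization, no scaling, the 75th percentile over all names, normexp on the median spot signal (the mean was not used here), the deposited table, a lower floor (1.81), no filter, brightness, slide or replicate number in the model, and arrays left out. The slope alternatives and the minimum of 1800 units were added after the values were seen.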

Additional observations from a re-analysis of the deposited data

Results flagged for a closer look

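In the 40 sets of values examined, 8 quantities at 5 ages each, 1 array stood apart from the rest of its age in 2 cases, where chance gives about 5% of sets. On day 42 replicate 4 miR-144 stood at 7.27 on the log2 scale, against 10.77 on the nearest of the other day 42 arrays and 11.01 on the highest. That array was the dimmest of its age, at 1727 intensity units, and miR-486 on it stood at 9.48. On day 4 replicate 1 the number of detected miRNAs was 282, against 318 on the nearest array of its age and 331 on the highest, and its miR-144 level of 7.91 was the lowest of day 4.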

How the results depend on the processing

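Of 1407 recomputed values for the members, 1262 kept their direction and their side of the threshold, 48 lost a call, 31 gained one and 66 changed sign. The slope of miR-144, the rise of miR-486 from day 7 to day 14 and both differences against miR-144 by brightness kept their direction in all of them. The causes of the changes below were not tested. With the 75th percentile over all names, day 14 minus day 1 was called for miR-144 (2.35) and miR-486 (0.82), day 14 minus day 7 for miR-451 (0.84) and day 42 minus day 1 for miR-451 (1.07) and miR-486 (1.099), the slope of miR-486 was -0.41, and day 42 minus day 4 was 0.53 for miR-144 and 0.61 for miR-451, the latter called. Also called there were day 14 minus day 4 for miR-451 (0.72) and miR-486 (0.70), day 42 minus day 4 for miR-486 (0.98) and day 42 minus day 7 for miR-451 (0.73). With no scaling, day 14 minus day 1 was 3.06 for miR-144 and 1.53 for miR-486, day 42 minus day 1 was 1.42 for miR-451 and 1.44 for miR-486, and these 4 were called, as were day 14 minus day 4 for miR-451 (1.102) and miR-486 (1.08) and day 42 minus day 4 for miR-486 (0.99). Signs turned there for miR-486 in day 42 minus day 14 (-0.085), day 7 minus day 1 (0.18) and the slope (0.54), for miR-144 in day 42 minus day 4 (0.55) and for miR-451 in day 42 minus day 4 (0.63) and day 7 minus day 4 (0.26). A positive slope with no scaling is what a miRNA that only follows brightness would have.

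With quantile normalization miR-451 was at 0.25 in day 14 minus day 1, -0.050 in day 14 minus day 7, -0.12 in day 42 minus day 1, -0.42 in day 42 minus day 7, 0.11 in day 7 minus day 4 and 0.42 over the 5 ages, none called, while miR-486 was called in day 42 minus day 1 (0.86) and day 42 minus day 4 (0.73). In the deposited table miR-451 was at 0.76 in day 14 minus day 1 and over the 5 ages, 0.022 in day 42 minus day 4, -0.048 in day 42 minus day 7 and 0.070 in day 7 minus day 4, none called, and miR-486 was called in day 42 minus day 1 (0.77). With normexp miR-486 was at -0.0083 in day 14 minus day 1, 0.85 in day 14 minus day 7, -0.35 in day 4 minus day 1, -0.17 in day 42 minus day 1, -0.16 in day 42 minus day 14, 0.86 over the 5 ages and -0.13 in its slope, and miR-451 at 0.011 in day 42 minus day 4 and 0.87 over the 5 ages, none called. The range of miR-451 over the 5 ages, 0.80, was not called with the lower floor, with no filter or with slide as a block.

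With brightness as a covariate miR-144 was at -1.40 in day 14 minus day 1, -0.87 in day 14 minus day 4, -0.90 in day 14 minus day 7, -0.53 in day 4 minus day 1, -2.60 in day 42 minus day 1, -2.07 in day 42 minus day 4, -2.10 in day 42 minus day 7 and -0.50 in day 7 minus day 1, with a range of 2.60 over the 5 ages; that range and the 3 differences of day 42 from day 1, day 4 and day 7 were called. For miR-451 the values were 0.26 in day 14 minus day 1, -0.084 in day 42 minus day 1, -0.056 in day 42 minus day 7, -0.028 in day 7 minus day 1 and 0.35 over the 5 ages. For miR-486 day 14 minus day 1 (0.94), day 42 minus day 1 (0.90), day 14 minus day 4 (0.68) and day 42 minus day 4 (0.65) were called, and day 42 minus day 14 was -0.039. Both without the 5 dimmest arrays and on the 18 of at least 1800 units, day 14 minus day 1 was -0.60 for miR-144 and 0.32 for miR-451, day 4 minus day 1 was -0.81 for miR-144 and -0.081 for miR-486, day 7 minus day 1 was -0.84 for miR-144 and -0.15 for miR-451, day 7 minus day 4 was -0.027 for miR-144, and miR-451 was at 0.47 over the 5 ages. Day 42 minus day 1 was -2.06 without the 5 and -1.15 on the 18 for miR-144, and -0.067 without the 5 for miR-451. On the 18, miR-451 was at 0.47 in day 14 minus day 7, now called (adjusted p = 0.0282), and at 0.073 in day 42 minus day 4, and miR-486 was at -0.13 in day 42 minus day 14. The slopes were 0.30 without the 5 and 0.082 on the 18 for miR-451, -0.25 and -0.085 for miR-486 and 1.04 on the 18 for miR-144, and r of miR-451 minus miR-486 with brightness was 0.30 on the 18, none called.

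Same-numbered replicates did not deviate together (median r -0.022 over 46 pairs, from -0.857 to 0.839). With the replicate block miR-451 was at 0.80 over the 5 ages (adjusted p = 0.0595), not called, and miR-486 at -0.031 in day 42 minus day 14.

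Leaving out single arrays, day 4 minus day 1 ran from -0.13 to 1.24 for miR-144 and from -0.071 to 0.22 for miR-486, day 14 minus day 1 from 1.24 to 2.61 for miR-144, day 42 minus day 1 from -0.22 to 1.42 for miR-144, from 0.18 to 0.57 for miR-451 (called without day 1 replicate 2) and from 0.26 to 0.66 for miR-486 (called without day 42 replicate 3). Day 42 minus day 4 ran from -0.64 to 0.82 for miR-144 and from -0.24 to 0.14 for miR-451, day 14 minus day 7 from -0.030 to 0.43 for miR-144, day 42 minus day 7 from -0.14 to 0.24 for miR-451 and day 42 minus day 14 from -0.18 to 0.22 for miR-486. The range of miR-451 over the 5 ages was 0.62 to 0.96. The slope of miR-486 ran from -0.64 to -0.38 and was not called without day 1 replicates 3 or 4, day 4 replicate 1 or day 42 replicates 3 or 4. With 4 or 5 arrays an age, differences of the size of the intervals above could not be told from none, and the level of miR-144 on the dimmest array lay close to background.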

Other observations

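The levels of miR-144 and miR-32 varied together from array to array: their correlation was 0.983 over 24 arrays and 0.983 over the 5 age means, and both had the steepest slopes on brightness, 3.09 and 2.80. The epithelial miRNA miR-141, of the miR-200 family, was next in likeness to miR-144 (0.956), with a slope of 1.75. The leukocyte miRNAs did not share a slope, with 1.84 for miR-142-3p and 1.47 for miR-142-5p against -0.94 for miR-150 and -0.36 for miR-223. The 4 striated muscle miRNAs had slopes from 1.19 to 2.42, whereas those of the 5 miRNAs switched off in erythroid maturation ran from -0.55 to -0.31. No cause of these slopes was tested.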
